A study of Anguilla anguilla with 6 samples.

Results

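The genes described here are the major histocompatibility complex (MHC) and interferon-related gene models of the European eel ovary. They were taken from the authors' deposited table by annotation alone: a description containing "histocompatibility", "interferon", "beta-2-microglobulin" or "antigen peptide transporter", or the name ha1f, a class I heavy chain first named in chicken. That rule found 127 of 45974 gene models. The ovaries came from 6 farmed European eels (Anguilla anguilla) that had been given 4 weekly gonadotropin injections, gonadotropins being the pituitary hormones that drive ovarian growth. By the phenotype label, 4 animals were responders and 2 were non-responders; the labels give no untreated animals, no age and no definition of a response. Each library came from 1 animal, with anterior, middle and posterior gonad pieces pooled, so it mixes oocytes with the other cells of the ovary.

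MHC class I molecules hold short peptides from inside the cell on its surface, where T cells can read them. The heavy chain needs beta-2-microglobulin as its light chain, and the TAP transporter carries the peptides into the endoplasmic reticulum. Interferons are secreted when a cell senses viral nucleic acid; they act through cell-surface receptors, JAK kinases and STAT factors, and switch on antiviral genes and much of the class I pathway.

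The authors' deposited table gives, for each model, the mean scaled count (reads divided by a size factor for library depth) of the 2 non-responders and of the 4 responders, their ratio and a p from DESeq, a count-based test. Single libraries and their depth were not analysed, so no value carries an SD and overlap between animals was not examined. Each log2 sets responders over non-responders. A model was called at an adjusted p under 0.05, which held for 0.183% of the 37072 models with a p. The tissue label was in keeping with the most abundant transcripts: ZP2 (g45297), an egg envelope protein, led the authors' deposited table with 254959 scaled counts across non-responders and 171541 across responders. Most members carry the name of a mammalian, chicken or fish protein that matched best, with a similarity of 0.415 to 0.954 (median 0.598). The lengths ran from 152 to 7182 bases, and 41 models were under 400 bases, so several can be pieces of 1 gene or near-identical copies that share reads. Levels of such copies are uncertain one by one.

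Per the authors' deposited table no MHC or interferon-related model passed the threshold, either higher (0.121% of all models with a p) or lower (0.062%). The closest was the class I heavy chain ha1f (g10017), about 4 times as abundant in the responder mean, with an adjusted p = 0.0928; it passed only when p was re-adjusted for models averaging at least 20, as 0.53% of those did. By their group means, 61 of the 91 members with a mean of at least 5 scaled counts were higher in responders and 30 were lower. Their median log2 was 0.37 (interquartile range -0.23 to 1.40), against 0.0068 over all 23266 models with such a mean, of which 50.6% were higher. At least 11 of the 61 and 1 of the 30 passed the minimum only through the group where they are high. These counts and medians are thus a description alone. Fewer cells of a type and less RNA per cell cannot be told apart in such bulk samples.

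Of the other 36 members, 6 were listed at 0 in both groups and 30 had a mean under 5. Without the filter on the mean, 77 members were higher in responders and 44 lower. An unadjusted p under 0.05 was given to 9 of the 91 members (9.89%) per the authors' deposited table, beside 5.61% of all models that abundant. Of the 9, 6 were higher (3.21% of all) and 3 lower (2.41% of all). More than 2-fold higher were 27 members (29.7%), beside 7.51% of all such models, and more than 2-fold lower were 8 (8.79%), beside 3.09%. The minimum applies to the mean over all libraries. So 11 of the 27 and 1 of the 8 passed it only through the group where they are high. The same holds for g39396, g27203 and g42096 among the 6 higher members with an unadjusted p under 0.05. None of these shares, the 9.89% included, supports a statement about the members.

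**Figure D1:**
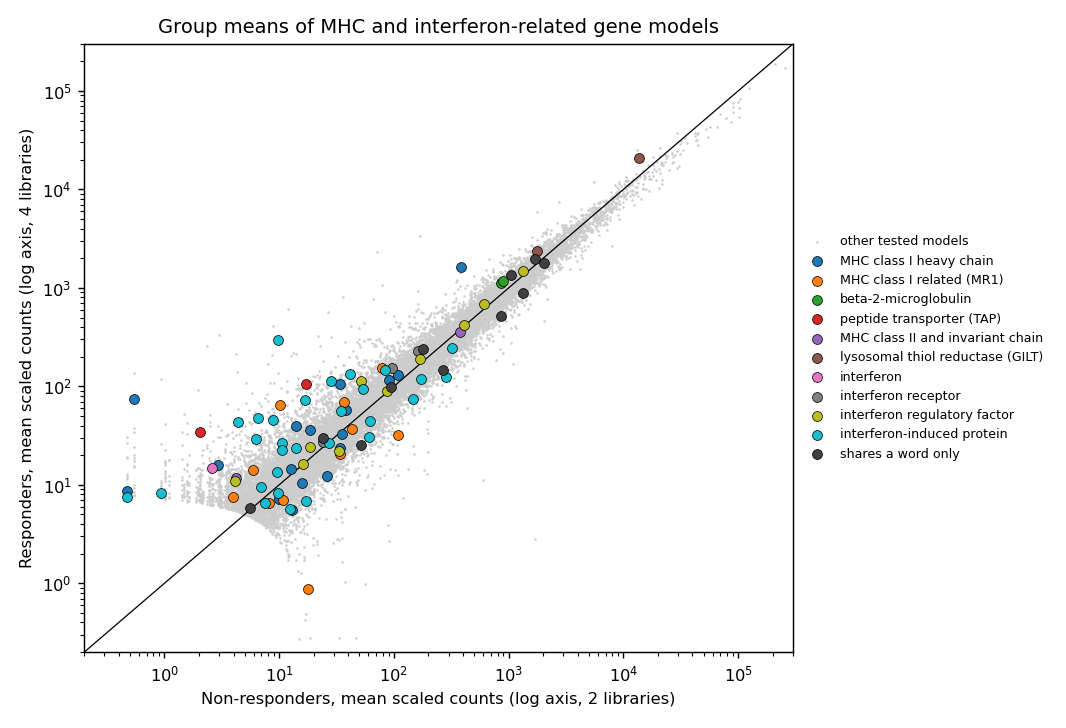
Mean scaled counts of non-responders (x axis, log) against responders (y axis, log) for models averaging at least 5, members coloured by role and all other models grey; the line marks equal means, and the 1 member listed at 0 in non-responders is not drawn. The lysosomal thiol reductase GILT lies highest, and ha1f (g10017), at 385 and 1623, lies farthest from the line among the abundant members.

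The class I heavy chain is the antigen-presenting part of the MHC class I molecule, and 21 models were described as one. Summed over these models, the authors' deposited table holds 848 scaled counts across non-responders and 2328 across responders, a ratio of 2.74. A single model made up most of this. The ha1f model g10017, 2319 bases long, had a mean of 385 across non-responders and 1623 across responders per the authors' deposited table (4.21-fold, log2 2.07, p = 0.00023, adjusted p = 0.0928). Without it, the summed level of the remaining 20 models was 463 against 705, a ratio of 1.52.

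The other 4 ha1f models had lower means and no gap of that kind; the difference between models was not tested. In the authors' deposited table g33634 had 35.5 scaled counts across non-responders and 32.6 across responders, and g33212 had 9.89 and 7.10. The last pair, g34991 (3.05 and 5.31) and g26592 (3.30 and 1.26), lay under the minimum mean of 5 per the authors' deposited table. None of these 4 had an unadjusted p under 0.05, and 3 of them are fragments of 279 to 303 bases. Whether they belong to the same locus as g10017 was not tested.

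Among the other heavy chain models the direction was mixed. Of 17 heavy chain models with a mean of at least 5, 11 were higher in responders and 6 lower, with a median log2 of 0.35 (0.79 at a mean of at least 20). Among the higher ones, g31640, g28286 and g42096 passed the minimum of 5 only through the responders. These counts and medians are thus a description alone. The next highest means after g10017 per the authors' deposited table were those of hlaf g32345 (108 against 132, log2 0.28) and ha1k g20155 (90.8 against 116, log2 0.35), whose group means were close. One short model had the only other unadjusted p under 0.05 of this class, hlaf g42096, at 2.90 scaled counts across non-responders and 15.8 across responders per the authors' deposited table (p = 0.039, adjusted p = 1). The widest gap belonged to the 245-base fragment ha1k g31640, at 0.547 across non-responders and 73.6 across responders per the authors' deposited table, with a p of only 0.235. Other members also paired a large ratio of means with a weak p.

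Partners of the heavy chain were on average higher in responders, without passing the threshold. Both beta-2-microglobulin models, the light chain of class I, were abundant: g20315 had 889.99 scaled counts across non-responders and 1170.1 across responders, and g15967 had 865 and 1116 per the authors' deposited table (log2 0.39 and 0.37). These light chain differences were small and their p-values were 0.56 for both per the authors' deposited table. TAP1 (g5001), a subunit of the peptide transporter, had 17.2 scaled counts across non-responders and 105 across responders per the authors' deposited table (log2 2.61, p = 0.110). TAP2 (g13907), the other subunit, had 2.03 and 34.6 per the authors' deposited table (log2 4.09, p = 0.0526). Both long transporter models had higher responder means, but TAP2 g13907 passed the minimum of 5 only through the responders. A shorter TAP2 model (g28075), at 3.28 against 0.486 per the authors' deposited table, lay the other way at a mean under 5.

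**Figure D2:**
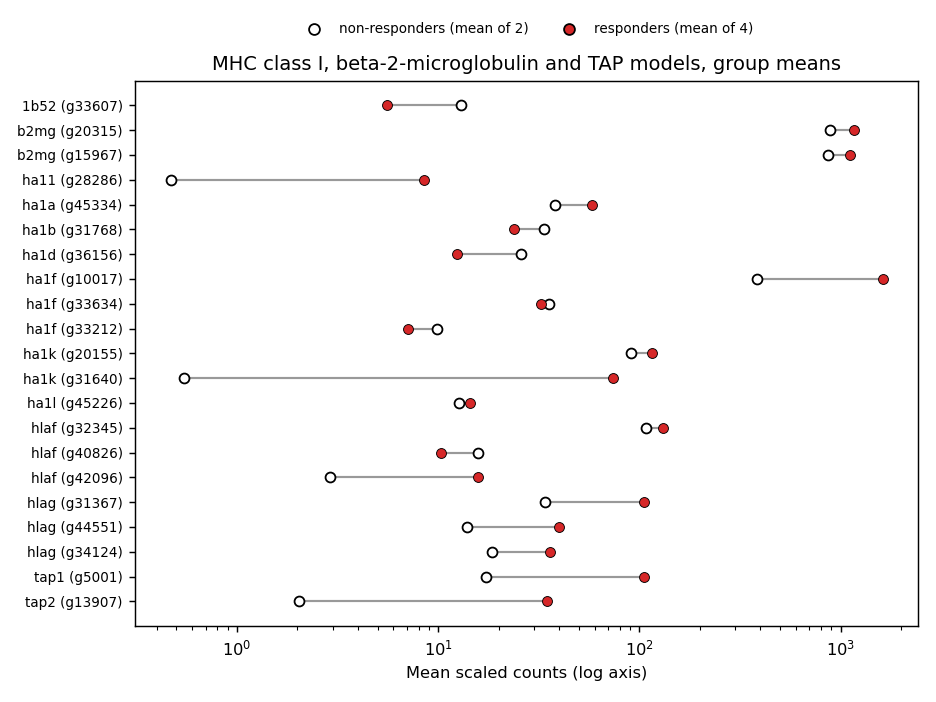
Mean scaled counts (x axis, log) of each class I heavy chain, beta-2-microglobulin (b2mg) and TAP model with a mean of at least 5; open circles are the mean of 2 non-responders and red circles the mean of 4 responders. The red circle of ha1f g10017 stands at 1623 and that of TAP1 at 105, both right of their open circles, while b2mg pairs lie close together.

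MR1-type models, named after a class I-related protein that in mammals presents small vitamin-derived metabolites, gave no common direction. Of 11 with a mean of at least 5, 5 were higher and 6 lower (median log2 -0.21, or 0.34 at a mean of at least 20), and 0 of them had an unadjusted p under 0.05. The highest means per the authors' deposited table belonged to g35423 (79.3 against 152), g26610 (109.5 against 32.2) and g29778 (36.8 against 68.7). The smallest p of this class, 0.0642, was that of the 182-base g37466, at 17.8 scaled counts across non-responders and 0.868 across responders per the authors' deposited table. Summed over the 12 MR1-type models the groups were close, at 364 and 413 scaled counts per the authors' deposited table.

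Class II and lysosomal processing were represented by 4 models. MHC class II presents peptides taken up from outside the cell, and the invariant chain guides it to the compartment where they are loaded. The class II gamma chain (g19476), which is the invariant chain, had nearly equal means of 375 and 360.3 per the authors' deposited table (log2 -0.06, or 0.05 with both groups scaled to equal sums). A 270-base class II beta chain fragment (hb2a, g31538) had 4.22 and 11.8 per the authors' deposited table (log2 1.48, p = 0.174). GILT, a lysosomal thiol reductase that reduces the disulfide bonds of proteins for class II loading and is induced by interferon gamma in mammals, had the highest transcript means of the set. Its model g1905 had 13606 scaled counts across non-responders and 20789 across responders (log2 0.61, p = 0.0890), and g19588 had 1772 and 2364 (log2 0.42, p = 0.200) per the authors' deposited table. Both GILT models were higher in the responder mean by less than 2-fold.

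Per kilobase of the longest transcript, the GILT model g1905 had 4547 scaled counts across non-responders and 6948 across responders. Beta-2-microglobulin (g20315) had 758 and 997 per kilobase, and IRF7 (g12275) 603 and 667. The ha1f model g10017 had 166 per kilobase across non-responders and 699.9 across responders, below IRF7 in the first group and above it in the second. Over the 63 members of at least 400 bases and a mean of at least 5, the median level over all libraries was 41.5 scaled counts per kilobase, against 56.8 over 18817 models of that kind.

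Interferon ligand transcripts were few: 1 of 3 models had a mean of at least 5. Interferon alpha-4 (g22957) was listed at 0 in both groups per the authors' deposited table. Interferon gamma (g13891), the type II interferon of T cells and natural killer cells, was listed at 0 across non-responders and at 0.269 across responders per the authors' deposited table. The model named interferon omega-1 (g7281), a type I interferon in mammals, had 2.58 and 14.7 per the authors' deposited table (log2 2.51, p = 0.516). This model passed the minimum of 5 only through the responders. No ligand difference was detectable at these levels.

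Receptor transcripts were present in both groups, and no receptor passed the threshold. The 2 expressed models of IFNAR1, a chain of the type I interferon receptor, had 162 against 229 (g13637, log2 0.50) and 96.8 against 152 (g38089, log2 0.65) scaled counts per the authors' deposited table, with p-values of 0.163 and 0.177. IFNGR1 (g1829), the ligand-binding chain of the interferon gamma receptor, had 23.96 and 26.95 per the authors' deposited table (log2 0.17). All 3 receptor models above the minimum were thus slightly higher in the responder mean, and another 2 were listed at 0 in both groups.

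Interferon regulatory factors (IRFs), the transcription factors that control interferon and interferon-induced genes, mostly had close group means. Of 10 models with a mean of at least 5, 9 were higher and 1 lower, but the median log2 was only 0.16. IRF7, the master regulator of type I interferon genes in mammals, was the most abundant, with 1346 scaled counts across non-responders and 1489 across responders per the authors' deposited table (g12275, log2 0.15). IRF5 (g660), which in mammals acts downstream of Toll-like receptors, had 411 and 417 per the authors' deposited table (log2 0.02). The p-values of IRF7 and IRF5 were 0.644 and 0.970 per the authors' deposited table.

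IRF2, which in mammals competes with the activator IRF1 at the same promoters, had a wider gap. Its model g17625 had 51.3 scaled counts across non-responders and 112 across responders per the authors' deposited table (2.19-fold, log2 1.13, p = 0.0090, adjusted p = 0.711). Another IRF2 model of similar length (g12912) had nearly equal means of 16.1 and 16.2 per the authors' deposited table. A 329-base IRF2 fragment (g31907) had 4.15 and 10.9 per the authors' deposited table (log2 1.40, p = 0.148). IRF1 (g7747) was the only IRF with the lower mean in responders among the 10, at 33.4 against 22.2 per the authors' deposited table (log2 -0.59, p = 0.295). IRF3 and all 4 models of IRF4, a lymphocyte factor, had means under 5.

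**Figure D3:**
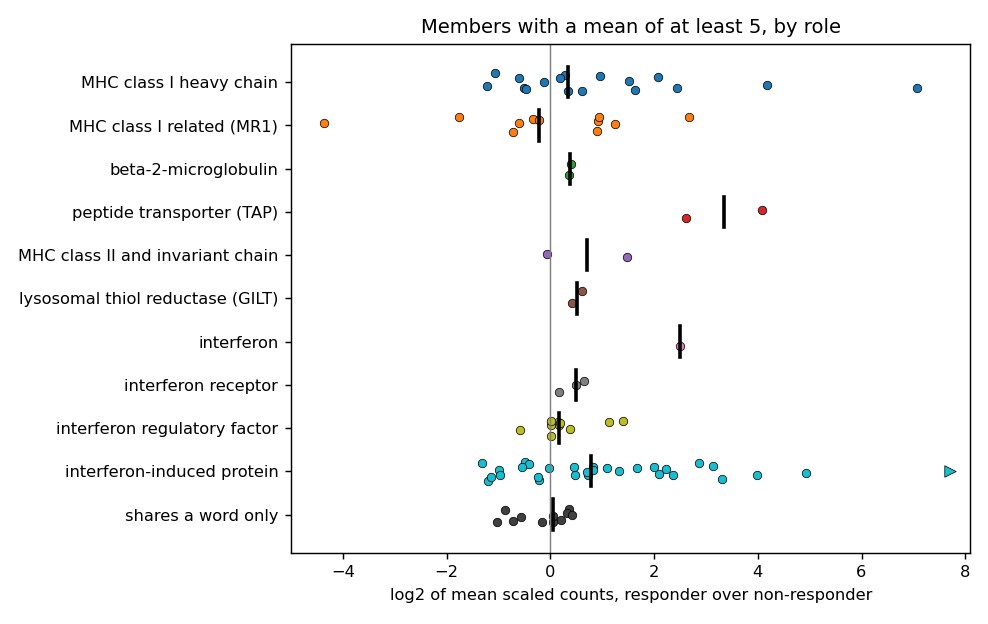
log2 of responder over non-responder means (x axis) for each member with a mean of at least 5, by role; points are gene models, black bars their median, and the arrowhead is the IFI44 model listed at 0 in non-responders. Interferon regulatory factors cluster near 0 (median 0.16), while interferon-induced proteins spread from -1.32 to 4.94 around a median of 0.77.

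By description, interferon-induced proteins made up 44 models, of which 30 had a mean of at least 5. Of these 30, 19 were higher in responders and 11 lower, with a median log2 of 0.77. The 19 include prkaa (g18584), whose description can mean that the kinase it activates, not prkaa itself, is inducible. An unadjusted p under 0.05 was given to 3 of them, beside 5.61% of all models that abundant. Among the 3, g39396 and g27203 passed the minimum only through the responders. The same holds for g4763 and g36895 among the higher models, so these counts and the median are a description alone. The direction differed between families: IFI44, Mx and IFIT5 models had mostly higher responder means, and the inducible GTPase models named iigp5 mostly lower ones. The families were set side by side after their values were seen, and the difference between them was not tested.

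IFI44, a protein named for its induction by interferon, had the widest gaps of the interferon-induced models. The model g13181 had 9.72 scaled counts across non-responders and 298 across responders per the authors' deposited table (log2 4.94, p = 0.0103, adjusted p = 0.763). The 273-base model g39396 was listed at 0 in non-responders and had 54.5 in responders per the authors' deposited table (p = 0.0028, adjusted p = 0.415). The remaining model named ifi44, g39062, was listed at 0 across non-responders and at 0.920 across responders per the authors' deposited table. An unnamed model described as IFI44 (g28341) lay the other way, at 7.59 against 6.55 per the authors' deposited table (log2 -0.21). Of 6 IFI44 or IFI44-like models with a mean of at least 5, 5 were higher in responders and 1, g28341, was lower. By its log2, g13181 ranked 40 from the top among the 23266 models averaging at least 5. The longer IFI44-like model g26148 had a smaller gap, 53.9 against 94.8 per the authors' deposited table (log2 0.81, p = 0.165). Over the 7 models described as IFI44 or IFI44-like, the summed level was 78.6 against 471 scaled counts per the authors' deposited table.

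Mx proteins are dynamin-like GTPases that block viruses inside the cell. Of 8 Mx models with a mean of at least 5, 7 were higher in responders, with a median log2 of 2.16 over the 8. The highest responder mean per the authors' deposited table was that of g30915, at 16.9 against 72.1 (log2 2.09, p = 0.168). The mx1 model g41956 had 6.48 and 47.2 (p = 0.615) and the mx2 model g36895 had 4.37 and 43.3 (p = 0.506) per the authors' deposited table. The exception was the longest Mx model (g14292, 2967 bases), at 61.1 across non-responders and 30.8 across responders per the authors' deposited table (log2 -0.99, p = 0.583). The smallest p of the family was 0.100, so none of these gaps was separated from the spread that the authors' test allowed for.

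Other effectors and sensors varied. IFIT5, which in humans binds viral RNA ends, had 28.5 scaled counts across non-responders and 115 across responders per the authors' deposited table (g7769, log2 2.01, p = 0.472). Guanylate-binding protein 1 had 3 models with unlike ratios per the authors' deposited table, at 41.6 against 133 (g20399), 27.1 against 26.7 (g22646) and 12.5 against 5.66 (g42466). MDA5 (ifih1, g5881), a sensor of double-stranded RNA, had 172 and 118 per the authors' deposited table (log2 -0.55, p = 0.284). The RNA-activated kinase PKR (e2ak2, g18710), which shuts down translation, had 17.0 and 6.78 per the authors' deposited table (log2 -1.32, p = 0.0779). An activator of that kinase (prkaa, g18584) had the opposite lean, 83.4 against 148 per the authors' deposited table (log2 0.83, p = 0.0555). MDA5 and PKR thus had the lower mean in responders, and neither difference passed. RIG-I, another RNA sensor that is given below with the name lists, had the higher mean in responders.

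Inducible GTPases of the IIGP family with a mean of at least 5 were all named iigp5 and put in this class by description alone. Some of the highest means among interferon-induced models were theirs. The iigp1 model (g30350) was listed at 0 in both groups. Whether interferon induces iigp5 in the eel was not tested. In the authors' deposited table g25979 had 321 scaled counts across non-responders and 243 across responders (log2 -0.40), and g25246 had 287 and 125 (log2 -1.19). Of 5 models with a mean of at least 5, 4 were lower in responders, and the summed level was 827 against 501 per the authors' deposited table. Their p-values ran from 0.218 to 0.791. Very large inducible GTPases (gvin1) had 11 models, nearly all at low levels; g27203, at 0.941 against 8.25 per the authors' deposited table (p = 0.0220, adjusted p = 1), was the only one with an unadjusted p under 0.05. Other gvin1 models lay the other way, such as g31130 (4.15 against 0.492) and g27260 (4.07 against 0.911), and the sum over all 11 was 28.6 against 24.3 per the authors' deposited table.

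**Figure D4:**
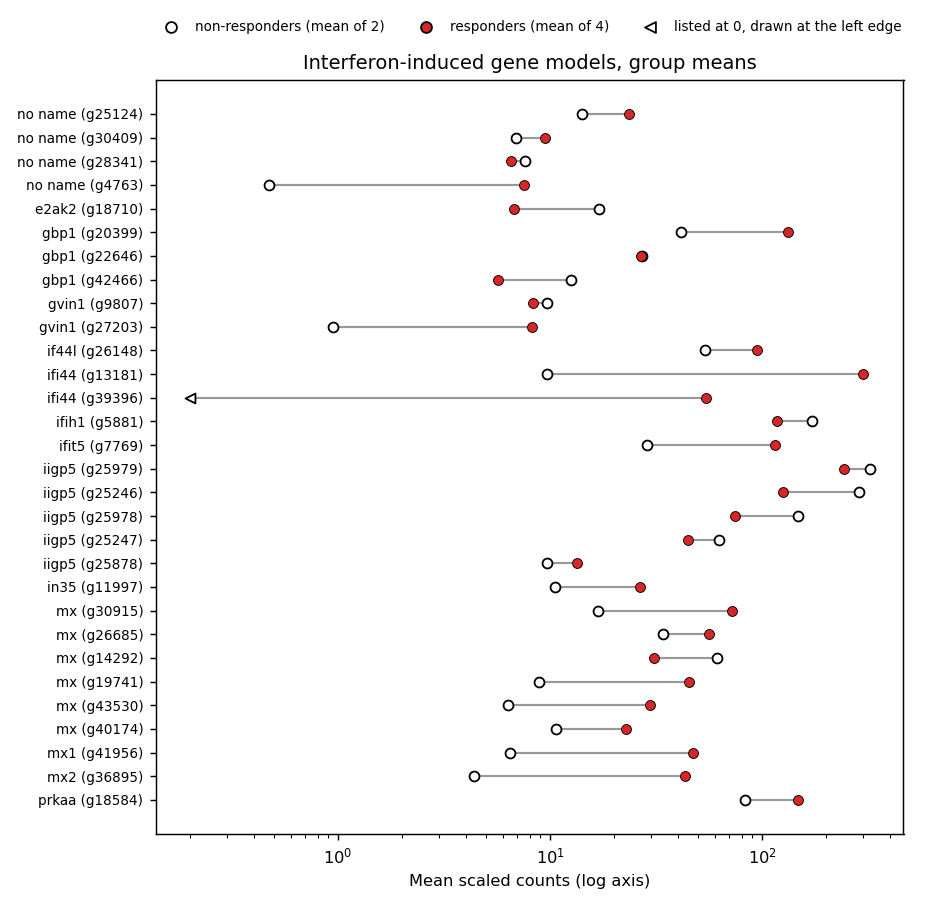
Mean scaled counts (x axis, log) of the 30 interferon-induced models with a mean of at least 5; open circles are the mean of 2 non-responders, red circles the mean of 4 responders, and the triangle a model listed at 0. Red lies far to the right for IFI44 g13181 (9.72 and 298), to the right by varying distances for 7 of 8 Mx models, and to the left for 4 of 5 iigp5 models.

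Large ratios with large p-values recurred across roles. A log2 above 2 was reached by 18 of the 91 members (19.8%), beside 1.89% of all models averaging at least 5. Of these 18, 9 had a non-responder mean under 5 and passed the minimum only through the responders, so the share is a description alone. The 18 comprised 10 interferon-induced models, 4 class I heavy chains, both long TAP models, 1 MR1-type model and interferon omega-1. Of these 18, 5 (27.8%) had an unadjusted p under 0.05 per the authors' deposited table, beside 47.6% of all 439 models with a log2 above 2. Of those 439, 259 likewise had a non-responder mean under 5. Both sets were picked by their ratio, so these shares too are a description alone. The spread between the 4 responders that enters such a p was not examined here.

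**Figure D5:**
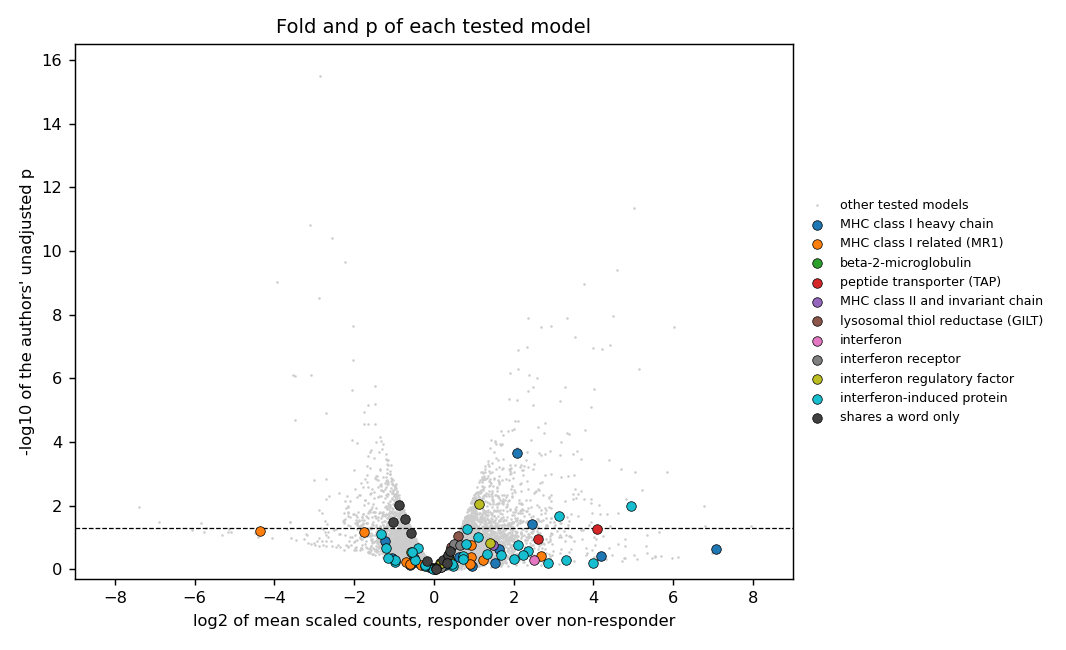
log2 of responder over non-responder means (x axis) against -log10 of the authors' unadjusted p (y axis) for models averaging at least 5 and above 0 in both groups; members are coloured by role, other models are grey, and the dashed line marks 0.05. The ha1f model g10017 stands highest among members. Of the 18 members with a log2 above 2, 13 have a p over 0.05, and g39396, listed at 0 in non-responders, is not drawn.

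The rule also caught 17 models that share only a word with this theme. These are signal peptide peptidase (hm13, a minor histocompatibility antigen), the minor histocompatibility protein HA-1, the corepressors that bind IRF2 (i2bp1, i2b2a, i2b2b), the transcriptional coregulator IFRD1 and a nucleolar exonuclease (i20l2). Of 11 with a mean of at least 5, 6 were higher and 5 lower, with a median log2 of 0.05. They supplied all 3 members that were lower in responders with an unadjusted p under 0.05. Those were i2b2a g33259 (267 against 145 scaled counts, p = 0.0095, adjusted p = 0.729), i2b2b g27690 (851 against 514, p = 0.0263) and hm13 g4299 (51.8 against 25.5, p = 0.0325) per the authors' deposited table. A longer i2b2a model (g20607) lay the other way, at 179.8 against 239 per the authors' deposited table, and the more abundant hm13 model g13656 had 1706 and 1978. The exonuclease (g1083, 2022 against 1805) and IFRD1 (g1374, 1048 against 1340) had close means per the authors' deposited table. Another abundant IFRD1 model (g9242) lay the other way, at 1328 against 894 per the authors' deposited table (log2 -0.57, p = 0.0727). Leaving all 17 out put the median log2 of the remaining 80 members with a mean of at least 5 at 0.47.

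Other genes of these pathways were taken from name lists, leaving out the members. In each list some of the higher models with a mean of at least 5 passed that minimum only through the responders. A lower JAK-STAT model, g10624, passed it only through the non-responders. The counts and medians of the lists are thus a description alone, beside 50.6% higher over all such models. Among 27 antigen processing models with a mean of at least 5, 16 were higher in responders and 11 lower (median log2 0.11), and 1 passed the threshold. That model was PSME2 (g19578), a subunit of the interferon-inducible proteasome activator, which fell from 310 scaled counts across non-responders to 75.4 across responders per the authors' deposited table (log2 -2.04, adjusted p = 5.6e-05). Another PSME2 model (g14964) had 866 and 598 per the authors' deposited table and did not pass. The tapasin-related protein (tpsnr, g10078), which edits the peptides on class I, came next, at 11.8 against 50.05 per the authors' deposited table (log2 2.08, adjusted p = 0.072). Tapasin itself (g5000), which bridges TAP and the heavy chain, had 20.1 and 35.5 (log2 0.82, p = 0.124) per the authors' deposited table. The only other unadjusted p under 0.05 among the 27 was that of cathepsin S (cats, g1076). Its means were 65175 and 42879 per the authors' deposited table (log2 -0.60, p = 0.0454). Summed over all 33 models of the list, most of it cathepsin S, the level was 80011 against 57772 scaled counts.

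JAK-STAT models, which relay the interferon signal, had 16 of 25 higher and 9 lower in responders (median log2 0.17), and none had an unadjusted p under 0.05. The smallest p per the authors' deposited table was that of STAT3 (g7387), at 65.9 against 105.5 (log2 0.68, p = 0.0963). Sensors of nucleic acid had 9 of 12 models higher and 3 lower (median log2 0.30), and none passed. MAVS (g7960), the adaptor through which RIG-I and MDA5 signal, had 20.4 and 44.1 per the authors' deposited table (log2 1.11, p = 0.0593). RIG-I (ddx58, g11629) had 14.6 and 80.9 per the authors' deposited table (log2 2.47, p = 0.171). A more abundant RIG-I model (g4496) had 23.9 and 106 per the authors' deposited table (log2 2.15, p = 0.415). Both gaps were wide and both p-values large, as for the Mx models.

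Antiviral effectors outside the annotation rule had 11 of 14 models higher in responders and 3 lower (median log2 0.69), with none called. Among the higher ones, g14118 and g22536 passed the minimum mean only through the responders. Lowest in p were PARP14 and PARP9, ADP-ribosyltransferases known in mammals to be induced by interferon. PARP14 (g796) had 29.6 scaled counts across non-responders and 114 across responders per the authors' deposited table (log2 1.95, p = 0.0041, adjusted p = 0.504). Another long PARP14 model (g13665) had 64.3 and 52.5 per the authors' deposited table (log2 -0.29, p = 0.547). PARP9 (g797) had 11.7 and 89.5 per the authors' deposited table (log2 2.93, p = 0.0047, adjusted p = 0.534). Over these lists and the leukocyte markers below, 1 of 86 models with a mean of at least 5 was called. Over all models with a p the share was 0.183%, but without that minimum, so the comparison is not like for like.

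Leukocyte markers were low in both groups. Of the 17 marker names, 10 matched 21 models, and 8 models had a mean of at least 5. Of these, 6 were higher in responders and 2 lower (median log2 0.60), but g4014 and g22769 passed the minimum only through the responders. Over all 21 models the summed level was 107 scaled counts across non-responders and 149 across responders per the authors' deposited table. PTPRC (g6670), the common leukocyte antigen CD45, had 23.7 and 20.9, and the myeloid factor SPI1 (g13044) had 21.8 and 35.7 per the authors' deposited table. The smallest p in the list was 0.233, that of FCER1G (fcerg, g19934), a signalling chain of Fc receptors, at 13.3 against 26.5 per the authors' deposited table. T cell markers were near the floor and had no common direction. ZAP70, a T cell kinase, was listed at 0 in non-responders and summed to 0.648 over its 3 models in responders per the authors' deposited table. LCK, another T cell kinase, lay the other way, summing to 5.01 across non-responders and 2.69 across responders over its 4 models. The CD3 zeta chain (cd3z) had 1.96 and 3.61 per the authors' deposited table. The part of leukocyte content in the MHC and interferon values was not tested.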

How the data were processed

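mRNA libraries of 6 eel ovaries were analysed from the authors' deposited table, whose own name credits DESeq; tool versions, aligner and build: not given in the sources used here. The authors deposited a base mean per group, a signal made of counts divided by size factors (scaled counts). The authors also deposited the fold, a ratio of the group means, with a p-value and an adjusted p-value. The overall mean weighs condition A by 0.33 and B by 0.67 (largest deviation 3.5e-10), so A pools 2 libraries and B 4, taken as non-responders and responders by number. Another 6 columns, 1 per library, have names found in no label and were not used, so depth, spread, edgeR fits and leave-one-out fits were not computed. 1 emptied row was left out. Transcript length and best-hit similarity are other annotation values that the authors deposited.

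The log2 was computed from the deposited fold, and means of at least 5 scaled counts were required for counts and medians; a model at 0 in non-responders enters medians as the highest value. Benjamini-Hochberg re-adjustment was tested on simulated data. The members were sorted into roles by description. Named were members with a mean of at least 5 and an unadjusted p under 0.05, every called member, all ha1f and ifi44 models, and per role the 3 highest means and the smallest p. From each list the called models and the 2 smallest p-values were named. Other models were named after their values were seen. Some models that the rule takes are not reported here. Members and lists were chosen with earlier results of these data known. The deposited p-values set the difference of group means against the variation that the authors' test allowed for, with 1 library per animal. The contrast rests on 2 non-responders. Identifiers matched the RefSeq gene table in 0 cases, so no coordinates or sequences are given. Alternatives were other adjustments, filters, scalings, a pseudocount of 1 and a narrower membership. Python 3.11.15, pandas 2.3.3, numpy 2.4.6 and matplotlib 3.10.9 were used.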

Additional observations from a re-analysis of the deposited data

How the results depend on the processing

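When the p was re-adjusted only for models averaging at least 20, it called 1 member higher in responders, ha1f g10017 (DESeq p re-adjusted to 0.046), beside 0.53% of those models, whereas among models averaging at least 5 it stayed above the threshold (adjusted p = 0.0582, 0 members called, 0.352% of models). No member was called lower under either. The median log2 of the members stayed above 0, at 0.48 with equal group sums, 0.37 at a mean of at least 20, 0.21 with no filter, 0.36 centred on all tested models, 0.47 without word-only matches and 0.36 with a pseudocount of 1. The medians that use a minimum mean include members that passed it only through the responders, so all are a description alone. Equal group sums add 0.11 to every log2. That put the class medians at 0.46 for class I heavy chains, -0.10 for MR1-type, 0.83 for class II, 0.49 for beta-2-microglobulin, 0.61 for receptors, 0.27 for IRFs, 0.89 for interferon-induced, 0.63 for GILT, 3.46 for TAP and 0.16 for word-only models. The TAP median rests on g5001 and g13907 alone, and g13907 passed the minimum only through the responders. At a mean of at least 20 the medians were 0.79 for class I heavy chains and 0.83 for interferon-induced models, the latter being the value of prkaa g18584. The same filter turned the sign for MR1-type (0.34), class II, which then holds only the invariant chain (-0.057), and word-only models (-0.058). For MR1-type and word-only models it removes members with low means. Of 39 named members with a finite log2, 38 kept their sign with equal group sums, and the invariant chain g19476 went from -0.057 to 0.054.

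No paired analysis was possible because the labels carry no shared numbers and values per library were not used. Leaving out each library in turn and count tests with edgeR or DESeq2 were not run for the latter reason. Depth per library is unknown here, so no counting intervals are given, and models at means under 5 say little about presence or difference. With 2 non-responders, a difference that did not pass is not shown to be absent.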
